A study of Mus musculus with 6 samples.

Results

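The genes described here are 7 enzymes around betaine, *Bhmt*, *Bhmt2*, *Dmgdh*, *Sardh*, *Chdh*, *Aldh7a1* and *Gnmt*, together with *Arsb*, a lysosomal sulfatase gene that lies beside *Bhmt*, *Bhmt2* and *Dmgdh* on mouse chromosome 13. All 8 genes had an entry among the 20633 RefSeq entries of the nuclear RNA-seq table, which carry 19338 distinct gene symbols. Where a gene had several entries, the entry with the highest base mean was kept. The chromosome 13 genes were chosen from the authors' own comparison of treated with untreated cells, and the other genes were added because they act in the same pathway. The values of that comparison are neither used nor printed here, so the text describes how much of each transcript the nuclei held, where the genes lie and what their start regions look like, and says nothing on how any gene responded.

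Nuclear RNA was sequenced from mouse embryonic stem cells of the genotype *Rybp* fl/fl;*Yaf2* -/-, 3 libraries from untreated cells (UNT) and 3 from cells kept for 96 hr in 4-hydroxytamoxifen (OHT) at 800 nM. Both groups lacked *Yaf2*, removed with Cas9 in colonies picked singly, and both carried the floxed *Rybp*, which OHT-activated Cre recombinase deletes. RYBP and its paralog YAF2 are subunits of Polycomb repressive complex 1, which ubiquitylates histone H2A at repressed genes. None of the 6 libraries came from OHT-treated cells without floxed *Rybp*, so a response to OHT or Cre and the loss of RYBP cannot be told apart in this design.

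Betaine is made from choline and is spent as a methyl donor. Choline dehydrogenase (*Chdh*) and the aldehyde dehydrogenase ALDH7A1 oxidise choline to betaine in 2 steps. BHMT then passes a methyl group from betaine to homocysteine, which gives methionine and dimethylglycine, and the mitochondrial enzymes DMGDH and SARDH strip dimethylglycine of its remaining methyl groups by way of sarcosine to glycine. GNMT runs the last of these steps in the other direction with S-adenosylmethionine as the donor. The pathway is best known from liver and kidney, where betaine also serves as an osmolyte.

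The only measure read from the table was the base mean, the count of read pairs normalised for library size and averaged by the authors over all 6 libraries, UNT and OHT together. It has no error and no value per library, the depth of the libraries is unknown, and whether groups overlap could not be seen. In a bulk measure of this kind, fewer cells with a transcript and less of it per cell cannot be told apart. A base mean above 0 was found for 19198 entries, with a median of 306.7 and quartiles of 25.9 and 1260. Percentiles below are the share of these entries that lie lower. The place of a gene among all entries is given by base mean as deposited. Because a long gene collects more reads, levels of one gene were set against those of another after division by length, once by the length of the gene from start to end (gene span) and once by the summed length of its exons, since the mapping was set up to keep intronic reads but the methods used here do not say whether they entered the counts. The median entry had a base mean of 13.7 per kb of gene span and 118.8 per kb of exon.

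The cells had the transcripts of their label. All 8 pluripotency markers with an entry were above the median of base mean per kb of gene span, from *Klf4* with a base mean of 2127 to *Tdgf1* with 14300. Of 9 hepatocyte markers 8 were below the lower quartile of base mean, with *Cps1* at 0, *Alb* at 0.508 and *Hnf4a* at 6.40, while *Apoa2*, a short gene, reached 179.5, and its 135.4 per kb of gene span lies above the median of that scale. Of 7 markers of the kidney proximal tubule 6 were below the lower quartile, with *Kap* at 0, and *Lrp2*, which is not restricted to kidney, stood at 2707. Fibroblast markers ranged from 2.42 for *Lum* to 369.3 for *Col1a1*, and markers of primitive endoderm from 7.42 for *Foxa2* to 461.2 for *Dab2*. The base mean of *Rybp* was 13983 and that of *Yaf2* was 3.24, and as a mean over both groups the former does not check the deletion.

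Of the 8 genes, 7 lay below the median base mean and 2 of them below the lower quartile. *Aldh7a1* was the exception. The median base mean of the 8 genes was 54.4, at a median percentile of 30.7. Per kb of exon the highest gene stood 258.1-fold above the lowest, and per kb of gene span 287.8-fold. Without values per library none of the differences between neighbouring genes in these orders could be tested.

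**Figure D1:**
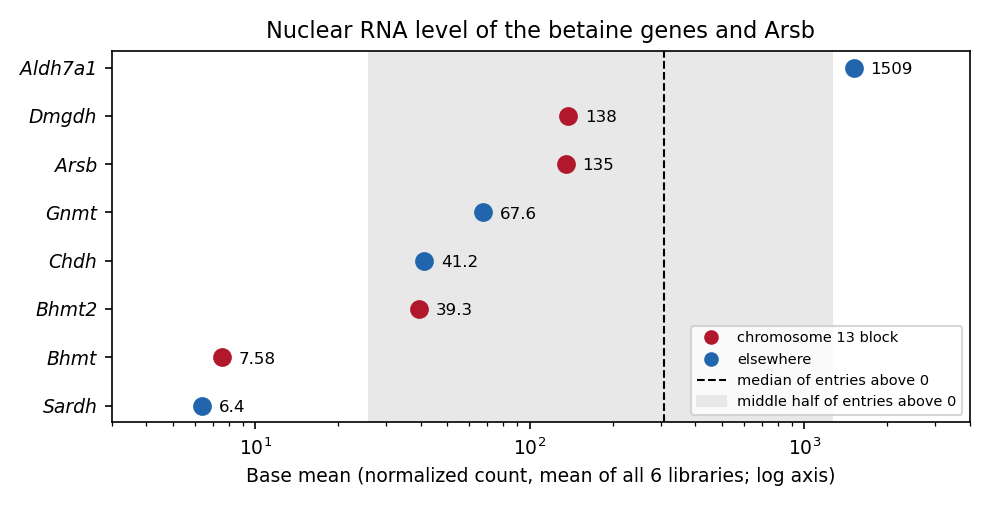
Base mean (normalised read count averaged over all 6 libraries, log axis) of each of the 8 genes, 1 point per gene, with the genes of the chromosome 13 block in red and the others in blue; the shaded band spans the quartiles of all entries above 0 (25.9 to 1260) and the dashed line their median (306.7). Only *Aldh7a1*, at 1509, lies to the right of the line, and *Bhmt* and *Sardh* lie to the left of the band.

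*Chdh*, which encodes the first enzyme of choline oxidation, lies on the plus strand of chromosome 14 (mm10, 30009023 to 30040527) and has 8 exons. Its base mean was 41.2, at percentile 28.6. Per kb of gene span this was 1.31, and per kb of exon 7.24. A second entry for *Chdh* had a base mean of 14.5. Both entries were given the same span of 31.5 kb and 5.69 kb of exon, although the paper filtered its gene set for unique starts and ends. The values per kb, and the start that belongs to the kept entry, are therefore uncertain. The end of *Chdh* overlaps the end of the calcium channel gene *Cacna1d*, on the opposite strand, over 589 bp.

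*Aldh7a1* encodes the next enzyme, which also acts in lysine breakdown and against lipid aldehydes. Its base mean was 1509, at percentile 78.2, and a second entry for the same gene stood at 1452. Per kb of gene span the level was 31.3, at percentile 65.0, and per kb of exon it was 365.3, at percentile 71.3. *Aldh7a1* was thus the highest of the 8 genes on each of the 3 scales.

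*Bhmt*, the betaine-homocysteine methyltransferase, was barely detected. The gene lies on the minus strand of chromosome 13 (93616675 to 93637961, 8 exons), and its base mean was 7.58, at percentile 16.8. Per kb of gene span its level was 0.356 and per kb of exon 3.04, the second lowest of the 8 genes on both scales. The non-coding gene *Gm15622* overlaps *Bhmt* on the opposite strand over 3252 bp. The libraries were made with a kit that keeps strand, but whether the counting used it is not given in the sources used here.

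*Bhmt2* encodes a close relative that methylates homocysteine from S-methylmethionine in place of betaine. It lies on the same strand as *Bhmt* (93655720 to 93674302, 8 exons), with 17758 bp between them. Its base mean was 39.3, at percentile 28.2. *Bhmt2* stood at 2.11 per kb of gene span and 15.9 per kb of exon, above *Bhmt* on both scales. The coding sequences of *Bhmt* and *Bhmt2* span 407 and 363 codons and were identical at 75.4% of 1088 aligned bases.

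Reads from such a pair can be shared, so the spliced transcripts of 7 of the genes were searched for stretches of 40 bases, the read length, that occur in both members of a pair. Of 21 pairs, 20 shared none. *Bhmt* and *Bhmt2* shared 20, which is 0.348% of the stretches of *Bhmt* and 0.832% of those of *Bhmt2*. These form a single run of 59 bases in the coding part of exon 7 of both genes, at chr13:93620181-93620239 in *Bhmt* and chr13:93662401-93662459 in *Bhmt2* (mm10, minus strand). It is shown because a read of 40 bases inside it matches both genes equally, so that only a mate outside the run could assign the pair.
Run shared by Bhmt and Bhmt2: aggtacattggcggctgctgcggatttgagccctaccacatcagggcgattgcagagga

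Outside this run the exons of *Bhmt* and *Bhmt2* could be told apart by a read of this length. Introns were not compared.

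*Dmgdh* encodes the mitochondrial flavoprotein that demethylates dimethylglycine. It lies on the plus strand of chromosome 13 (93674433 to 93752833, 16 exons). Its base mean was 137.8, at percentile 39.8. Exons make up 3.82% of the gene, and the scale therefore matters here: *Dmgdh* stood at 1.76 per kb of gene span, 0.832 times the level of *Bhmt2*, but at 46.1 per kb of exon, 2.89 times that of *Bhmt2*. The non-coding gene *AW495222* lies wholly inside *Dmgdh* on the opposite strand, and had an entry of its own with a base mean of 3.38.

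*Sardh*, whose product takes sarcosine to glycine, was the lowest of the 8 genes on all 3 scales. It lies on the minus strand of chromosome 2 (27188393 to 27247266, 21 exons). Its base mean was 6.40, at percentile 15.8, with 0.109 per kb of gene span and 1.42 per kb of exon. *Sardhos*, a non-coding gene on the opposite strand, covers 45329 bp of it. The coding sequences of *Dmgdh* and *Sardh*, which belong to a family of related flavoproteins, were identical at 59.8% of 2433 aligned bases, and no stretch of 40 bases was common to their transcripts.

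*Gnmt* encodes the glycine N-methyltransferase, which consumes S-adenosylmethionine and is abundant in liver. The gene is short, on the minus strand of chromosome 17 (46725664 to 46729168, 6 exons). Its base mean of 67.6 lay at percentile 32.9. Per kb of gene span the level of *Gnmt* was 19.3, at percentile 55.4 and second only to *Aldh7a1*, and per kb of exon it was 65.3, at percentile 41.6. The non-coding gene *Gm26904* covers the whole of *Gnmt* on the opposite strand.

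*Arsb* encodes arylsulfatase B, the lysosomal enzyme that removes sulfate from dermatan and chondroitin sulfate, and has no known part in betaine metabolism. It lies on the plus strand of chromosome 13 (93771630 to 93943016, 8 exons). Its base mean of 134.9 lay at percentile 39.5. *Arsb* is the longest of the 8 genes at 171.4 kb, and exons make up 2.36% of it. Its level was 0.787 per kb of gene span, at percentile 20.9, and 33.4 per kb of exon, at percentile 34.6.

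**Figure D2:**
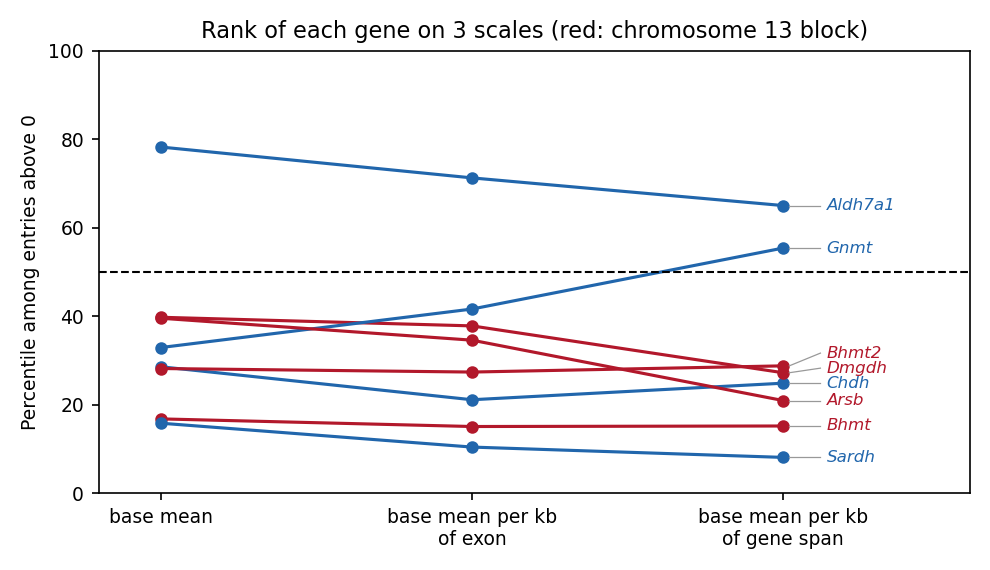
Percentile of each of the 8 genes among entries above 0 (vertical axis), by base mean, by base mean per kb of exon and by base mean per kb of gene span (horizontal axis), 1 line per gene, red for the chromosome 13 block and blue for the others; the dashed line marks percentile 50. *Aldh7a1* is the top line throughout, *Gnmt* climbs from percentile 32.9 to 55.4, and *Arsb* and *Dmgdh* sink from near percentile 40 to 20.9 and 27.2.

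The 4 genes of chromosome 13 form a block of 326.3 kb (mm10, 93616675 to 93943016) in the order *Bhmt*, *Bhmt2*, *Dmgdh* and *Arsb*. The first pair is read from the minus strand and the last pair from the plus strand. *Bhmt2* and *Dmgdh* are read away from each other, and 130 bp separate their starts. *Dmgdh* and *Arsb* are read in the same direction with 18796 bp between the end of the former and the start of the latter. *Gm47210*, a non-coding gene annotated as sharing a promoter with its neighbour, overlaps the start of *Arsb* on the opposite strand over 565 bp.

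The stretch between the starts of *Bhmt2* and *Dmgdh* is shown because it is the start region of both genes. It is followed by the stretch before the annotated start of *Arsb* and by that before *Bhmt*, the lowest gene of the block. Each is written 5′ to 3′ on the strand given and ends at the first annotated exon, from RefSeq windows on GRCm38.p6, which has the coordinates of mm10. Capitals mark CpG dinucleotides, the sites of DNA methylation, which are dense in the CpG islands where Polycomb complexes bind.
Bhmt2 to Dmgdh, chr13:93674303-93674432, plus strand: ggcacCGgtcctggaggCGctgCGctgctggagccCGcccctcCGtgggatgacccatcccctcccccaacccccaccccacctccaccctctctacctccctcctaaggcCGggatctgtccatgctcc
Before Arsb, chr13:93771429-93771629, plus strand: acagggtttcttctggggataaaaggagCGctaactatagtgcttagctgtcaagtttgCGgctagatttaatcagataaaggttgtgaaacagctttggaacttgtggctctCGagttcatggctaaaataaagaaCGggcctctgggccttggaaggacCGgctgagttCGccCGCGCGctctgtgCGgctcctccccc
Before Bhmt, chr13:93637962-93638008, minus strand: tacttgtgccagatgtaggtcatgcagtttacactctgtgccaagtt

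The 130 bases between *Bhmt2* and *Dmgdh* hold 6 CpGs at a GC content of 70.8%. This is 0.435 times the number that their C and G content would give by chance pairing. The 201 bases before *Arsb* hold 10, or 0.753 times the number expected in that way. Most of these lie in the part nearest to the start, and the stretch overlaps an exon of *Gm47210*. The 47 bases before *Bhmt* hold 0.

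Around the block, transcript levels were mostly higher. Within 500 kb on either side or inside it, 9 other genes had an entry. Of these, 7 had a higher base mean per kb of gene span than each of the 4 genes, which ranged from 0.356 for *Bhmt* to 2.11 for *Bhmt2*. The nearest protein-coding gene on the left was *Jmy*, an actin regulator, at 31.4 per kb of gene span, and beyond it lay *Homer1*, a synaptic scaffold gene, at 24.3 and *Tent2*, a poly(A) polymerase gene, at 67.4. On the right the nearest was *Lhfpl2*, at 5.16, followed by the vesicle genes *Scamp1*, at 15.5, and *Ap3b1*, at 31.9. The non-coding *Gm9776*, which starts beside *Ap3b1*, had 11.2. The remaining neighbours were *Cmya5*, a muscle gene, at 0.200 and *AW495222*, inside *Dmgdh*, at 0.260. Per kb of exon, 6 of the 9 were higher than each of the 4 genes. Because the 4 genes were chosen from the authors' comparison, this contrast with their neighbours is not independent of the choice. *Jmy* ends 116.9 kb before the block and *Lhfpl2* begins 114.8 kb after it, and RNA from the sequence between genes is not in the table.

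**Figure D3:**
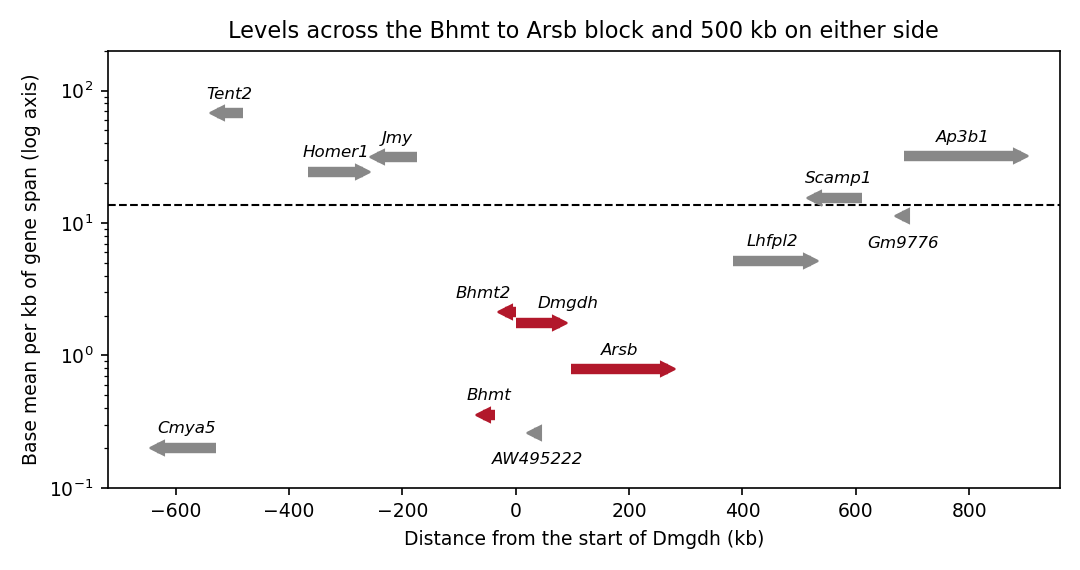
Base mean per kb of gene span (vertical, log axis) for every entry from 500 kb left of *Bhmt* to 500 kb right of *Arsb*, each drawn as an arrow from its start to its end in the direction of reading (horizontal axis, kb from the start of *Dmgdh*), red for the block and grey for its neighbours; the dashed line is the median of all entries, 13.7. The red arrows lie at or below 2.11 and most grey arrows at or above 5.16, apart from *Cmya5* and *AW495222*.

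Pairs of genes read away from each other from starts within 1000 bp are common. With each gene taken at its entry with the highest base mean, 922 such pairs had a base mean above 0 for both genes. The median between the starts was 163 bp, and 39.0% of the pairs were closer than *Bhmt2* and *Dmgdh*. Both genes were below the median of base mean per kb of gene span in 113 of these pairs, or 12.3%, and *Bhmt2* with *Dmgdh* was among them. By base mean the share of pairs was 14.6%, while 49.8% of all genes taken singly were below that median. *Bhmt2* and *Dmgdh* were chosen from the authors' comparison, so their place here is not independent of the choice.

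The start regions of the 8 genes were of different kinds. RefSeq windows from 250 bases before to 50 bases after an annotated start were found for 7 of the 8 genes, 9 windows in all. No window was held for *Aldh7a1*. A window was counted as CpG-rich when its GC content was at least 50% and it held at least 0.6 times the CpGs that its C and G content would give by chance pairing. *Arsb*, with 22 CpGs at 0.809 times that number, *Dmgdh*, with 25 at 0.753, *Bhmt2*, with 26 at 0.664, and the outermost of 3 windows of *Chdh*, with 26 at 0.703, met both conditions. The windows of *Bhmt2* and *Dmgdh* have 233 bases in common and are not independent. Only 6 of the CpGs in each lie in the 130 bases between the 2 starts, where the ratio of 0.435 is below the 0.6 limit. *Bhmt* held 8 CpGs (0.463), *Gnmt* 11 (0.383) and *Sardh* 4 (0.159), and the inner windows of *Chdh* held 4 each. The window of *Bhmt* (93637709 to 93638008) was placed on a different annotated start from the one used above, at 93637961. Only 47 of its bases lie before that position, and the rest lie inside the gene.

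In all, 4 of 7 genes had a CpG-rich window, against 54.9% of the 15271 genes of the table with a window. These are 79.0% of its genes, under the 80% taken as needed for a check over all genes, so that the share is given as a description only. Among the 8369 such genes with a CpG-rich window and a base mean above 0, the median was 33.0 per kb of gene span, and among the 5771 without one it was 1.54. Set beside genes of their own class on that scale, the 4 genes with a CpG-rich window were low, *Arsb* at percentile 5.60, *Chdh* at 7.84, *Dmgdh* at 9.20 and *Bhmt2* at 10.2. *Arsb* and *Dmgdh* also ranked lower among all entries per kb of gene span (percentiles 20.9 and 27.2) than per kb of exon (34.6 and 37.8). Percentiles within a class were not computed per kb of exon, so these places hold for gene span only. *Arsb*, *Dmgdh* and *Bhmt2* were also among the genes chosen from the authors' comparison. With limits of 0.75 times the CpGs and 55% GC, *Chdh* and *Bhmt2* did not belong to the CpG-rich class. Without a CpG-rich window, *Sardh* lay at percentile 18.4 of its class, *Bhmt* at 32.6 and *Gnmt* at 79.1. The class of *Bhmt* rests on a window that lies mostly inside the gene. That of *Chdh* rests on its outermost window alone, and the start and the values per kb of its kept entry are uncertain.

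**Figure D4:**
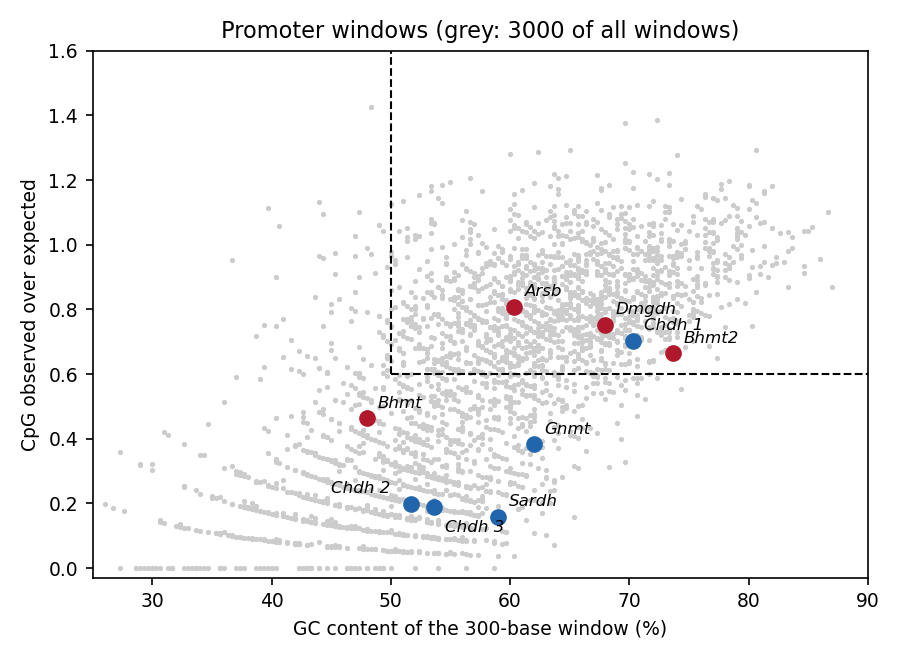
GC content in percent (horizontal axis) and observed over expected CpG (vertical axis) of the 300-base start windows, with 3000 windows of the table in grey, the chromosome 13 genes in red and *Chdh* (3 windows, numbered along the chromosome), *Gnmt* and *Sardh* in blue; dashed lines mark the limits of the CpG-rich class. *Arsb*, *Dmgdh*, *Bhmt2* and the first *Chdh* window lie inside the limits, and the remaining windows of the set lie outside.

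The windows were also searched on both strands for 3 short motifs, of which the first 2 belong to MGA and E2F6, factors of a PRC1 complex that contains RYBP. The E-box CACGTG was in 0 of the 9 windows, and in 8.61% of all 18833 windows. TCCCGC, the core of the E2F6 site, was found once, in *Arsb*, and in 28.7% of all windows. TATAAA, the TATA box, was in 0 of the 9 and in 9.93% of all. These motifs do not overlap one another in sequence, and a match or its absence in such a window is a description of the letters alone.

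Genes of the pathways around the betaine enzymes and around *Arsb* were more highly represented than the 8 genes. Of 80 genes in 8 lists of adjoining pathways 77 had an entry, and 55 of these were at or above the median of base mean per kb of gene span, as were 2 of the 8 genes. Per kb of exon the counts were 55 of 77 and 1 of 8. The median percentile per kb of gene span was 63.9 for the lists together and 26.0 for the 8 genes. Because the chromosome 13 genes were chosen from the authors' comparison, this contrast is not independent of the choice either.

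Of 10 genes of choline uptake and of phosphatidylcholine synthesis, which uses choline, 7 were at or above the median per kb of gene span. The choline transporter gene *Slc44a1* stood at 32.9, the choline kinase genes *Chka* and *Chkb* at 100.02 and 103.7, and *Cept1*, which completes phosphatidylcholine, at 54.7. Lower on that scale were *Pemt*, the liver enzyme of phosphatidylcholine synthesis, at 2.53, and *Slc5a7*, the transporter of cholinergic neurons, at 0.480. Per kb of exon 9 of the 10 genes were at or above the median, *Pemt* among them at 199.4.

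Among 7 other genes of betaine, dimethylglycine and sarcosine, 4 were at or above the median per kb of gene span. *Etfa* and *Etfb*, subunits of the flavoprotein that takes electrons from DMGDH and SARDH, stood at 35.3 and 58.7, and *Etfdh*, next in that chain, at 17.9. *Pipox*, whose product oxidises sarcosine in peroxisomes, stood at 53.8, against 0.109 for *Sardh*. The carriers *Slc6a12*, which imports betaine, *Slc6a20a* and *Slc25a48* stood at 0.960, 0.448 and 0.880.

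The methionine cycle, which BHMT and BHMT2 feed, had 8 of 11 genes at or above the median per kb of gene span. *Mat2a*, the S-adenosylmethionine synthetase of most dividing cells, stood at 1070, and its liver counterpart *Mat1a* at 0.0629. *Mtr*, the methionine synthase that remethylates homocysteine with folate in place of betaine, stood at 27.1 per kb of gene span, beside 0.356 for *Bhmt*. Next to *Mat2a* by base mean were *Ahcyl2*, at 23.4 per kb of gene span, and *Ahcyl1*, at 85.0, relatives of S-adenosylhomocysteine hydrolase. *Gamt*, for creatine synthesis, and *Nnmt*, the nicotinamide methyltransferase, were low at 6.38 and 0.898. In transsulfuration, which drains homocysteine towards cysteine, 4 of 6 genes were at or above the median, with the glutathione genes *Gclc* and *Gclm* at 94.7 and 67.3, *Cth* at 18.8, *Csad* at 24.3, *Cbs* at 11.8 and *Cdo1* at 9.50.

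Of 15 genes of the folate cycle with an entry 11 were at or above the median per kb of gene span. *Mthfd1* stood at 96.04, *Mthfd1l* at 23.9 and the serine hydroxymethyltransferase gene *Shmt1* at 103.0. The formyltetrahydrofolate dehydrogenase genes *Aldh1l1* and *Aldh1l2* were lower at 3.68 and 2.54, as was *Ftcd*, of histidine breakdown in liver, at 0.187. Of 8 genes of serine and glycine metabolism 6 were at or above the median. *Gldc*, the glycine decarboxylase that consumes the end product of the betaine route, stood at 72.4, *Psat1*, of serine synthesis, at 229.9 and *Dld* at 137.4, while *Psph* stood at 25.7, *Glyctk* at 11.3 and *Agxt*, a liver peroxisomal gene, at 0.0991.

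For *Arsb* the matching lists were those of sulfatases and of lysosomal breakdown. Of 13 sulfatase genes and their activators 8 were at or above the median per kb of gene span, with the heparan sulfatase genes *Sulf2* and *Sulf1* at 55.4 and 21.07. *Arsi* and *Arsj*, the arylsulfatases nearest to *Arsb* in sequence family, stood at 2.98 and 0.496 per kb of gene span. *Arsb*, at 0.787, lay between them on that scale. Per kb of exon *Arsi* and *Arsj* stood at 6.79 and 9.87, both below *Arsb* at 33.4. *Sgsh* stood at 12.6 per kb of gene span. All 7 other genes of dermatan and chondroitin sulfate breakdown with an entry were at or above the median per kb of gene span, from *Idua* at 16.6 to *Hyal2* at 206.0, and 5 of the 7 were so per kb of exon. Among them were *Hexa* at 75.1, *Glb1* at 42.8, *Gusb* at 41.9 and *Hyal1* at 55.3.

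**Figure D5:**
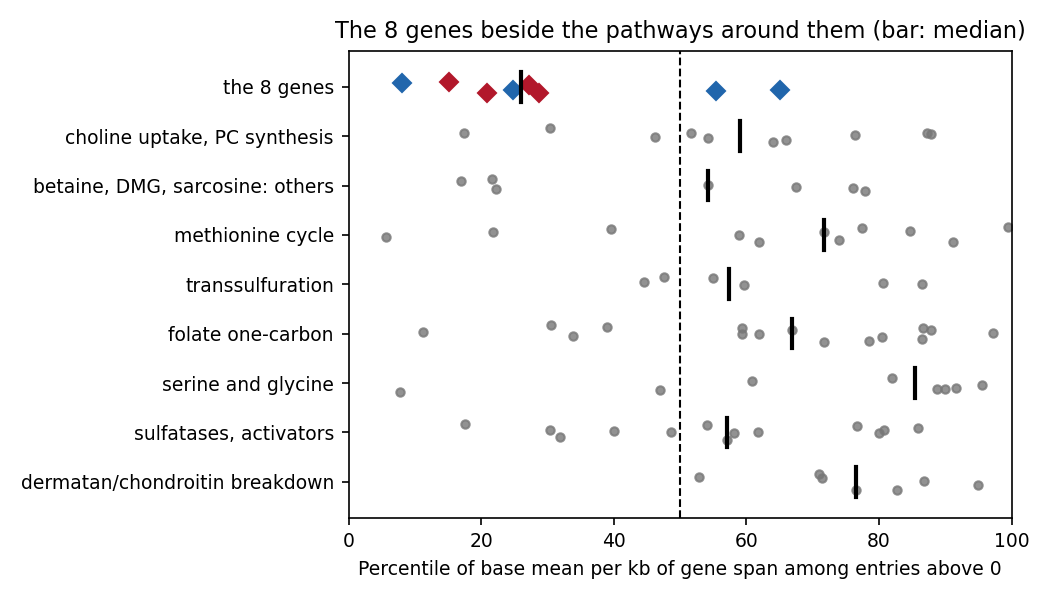
Percentile of base mean per kb of gene span among entries above 0 (horizontal axis) for the 8 genes (diamonds, red for the chromosome 13 block) and for the genes of 8 adjoining pathway lists (grey points), with a black bar at each median and a dashed line at percentile 50; PC is phosphatidylcholine and DMG dimethylglycine. The median of the 8 genes is 26.0, and the list medians run from 54.2 for the other betaine, dimethylglycine and sarcosine genes to 85.4 for serine and glycine metabolism.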

How the data were processed

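The deposited table came from 3 UNT and 3 OHT libraries. Per the study's methods the authors removed rRNA reads using bowtie2, mapped the remainder to mm10 (STAR, with bowtie2 for what STAR left unmapped), counted read pairs per gene of a reduced RefSeq set and used DESeq2. The base mean deposited by the authors is a signal, the normalised count averaged over all 6 libraries. The other 6 value columns hold the authors' own comparison of OHT with UNT (fold change, standard error, statistic, p-values and a threshold mark), and were not used. No test was therefore made, and no library was compared with another. Depth per library is not known.

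Entries were named through RefSeq (GRCm38.p6, 20450 entries) and GENCODE vM21 (20560 entries in all). Lengths and positions came from the GENCODE transcript of each RefSeq entry (20261 entries), otherwise from RefSeq. Both *Chdh* entries map to the same transcript. Neighbours were all entries within 500 kb of the block. Named genes were the 8 genes, these neighbours, *Rybp*, *Yaf2* and the 3 highest and 3 lowest of each list by base mean, apart from some that are not reported here, and other list genes or markers were named after their values were seen. The members and lists were chosen with earlier results of these data known. Python 3.11.15, pandas 2.3.3, scipy 1.17.1 and Biopython 1.88 were used, and the functions were tested on simulated data.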

Additional observations from a re-analysis of the deposited data

How the results depend on the processing

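No paired analysis was possible because only means over all libraries were read, and no replicate could be left out for the same reason. The median percentile of the 8 genes, 30.7 in the text, was 35.6 with entries at 0 included, 14.9 among entries at or above a base mean of 10, 31.2 with 1 entry per gene, 26.0 per kb of gene span and 31.0 per kb of exon. For the 4 chromosome 13 genes it was 33.9, and 38.5, 18.8, 34.3, 24.1 and 31.0 under the same alternatives. For their neighbours it was 75.7, and 77.4, 70.2, 75.7, 51.9 and 63.2, or 74.3 with neighbours within 250 kb and 65.01 within 1000 kb. Per kb of gene span 2 genes in place of 1 were above the median, *Gnmt* being the addition, and it is the single gene that changed side under any of these alternatives. With an observed over expected CpG of at least 0.75 and a GC content of at least 55%, 2 genes in place of 4 had a CpG-rich window (*Bhmt2* and *Chdh* dropped out), and the share over all genes was 37.5% in place of 54.9%. With the 200 bases before the start alone it was 3 genes (without *Dmgdh*) and 52.9%. Since 4 of the 8 genes had a base mean under 50, their levels rest on few reads.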
